A study of Mus musculus with 19 samples.

Results

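A set of 10 genes of intestinal steroid hormone synthesis, inactivation and reception were followed in mouse colon and colon tumours. They were taken by symbol from a table of 32694 genes, and all 10 were found: Nr5a2, Cyp11a1, Hsd3b2, Hsd3b3, Cyp11b1, Hsd11b1, Hsd11b2, Hsd17b2, Nr3c1 and Nr3c2. RNA came from mice of 12 weeks of age in 3 groups, with 1 library per mouse. Wild-type colon, labelled as normal, was taken from 3 females and 2 males. Colon tumours labelled Apc heterozygous, called Apc tumours, came from 3 females and 4 males. In these mice Villin-Cre, a recombinase driven in the intestinal epithelium, had removed 1 allele of Apc, the brake on Wnt signalling. Colon tumours labelled Apc heterozygous and null for Tgif1 and Tgif2, a pair of homeodomain repressors, also came from 3 females and 4 males and are called Apc/Tgif-labelled tumours here. By the design Villin-Cre was also directed there at both alleles of each Tgif gene, which leaves cells outside the epithelium with these genes. Whether the wild-type mice carried Villin-Cre is not stated in the labels.

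The adrenal gland makes most corticosteroids, and the intestinal epithelium makes some of its own. In the mouse intestine the orphan nuclear receptor Nr5a2 (also called liver receptor homolog, LRH-1) is known to switch on the steroid-making enzymes. Cyp11a1 cuts cholesterol to pregnenolone, enzymes of the Hsd3b family turn pregnenolone into progesterone, and Cyp21a1 and Cyp11b1 complete corticosterone, the main glucocorticoid of the mouse. Tissue levels of active hormone are then set by Hsd11b1, which regenerates corticosterone, and Hsd11b2, which inactivates it. The hormones act through the glucocorticoid receptor, encoded by Nr3c1, and the mineralocorticoid receptor, encoded by Nr3c2, through which aldosterone drives sodium uptake in the distal colon.

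Promoter sequences are shown for the genes that differed between the tumour groups at the enzyme steps, because Hsd3b2 and Hsd3b3 moved together and because Cyp11a1 moved against Nr5a2. They are RefSeq sequences of GRCm38.p6 and run from 100 bases before an annotated start to 50 bases after it. Promoters were matched by symbol for 6 of the 10 genes.
Hsd3b2 (chr3:98724494-98724643, minus strand): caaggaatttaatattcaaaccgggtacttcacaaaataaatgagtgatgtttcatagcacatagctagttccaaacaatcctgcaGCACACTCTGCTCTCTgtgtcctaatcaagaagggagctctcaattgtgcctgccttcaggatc
Hsd3b3, first start (chr3:98763079-98763228, minus strand): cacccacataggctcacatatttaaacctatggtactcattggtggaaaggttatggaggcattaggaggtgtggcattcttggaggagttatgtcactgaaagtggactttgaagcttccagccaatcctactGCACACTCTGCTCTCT
Hsd3b3, second start (chr3:98762361-98762510, minus strand): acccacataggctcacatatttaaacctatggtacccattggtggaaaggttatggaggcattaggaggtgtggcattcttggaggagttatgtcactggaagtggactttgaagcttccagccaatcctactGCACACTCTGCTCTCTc
Cyp11a1, second start (chr9:58014852-58015001, plus strand): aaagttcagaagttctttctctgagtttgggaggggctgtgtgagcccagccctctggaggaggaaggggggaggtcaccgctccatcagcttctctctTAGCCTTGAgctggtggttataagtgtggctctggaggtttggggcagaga
Capitals in the Hsd3b sequences mark a run of 16 bases that Hsd3b2 and Hsd3b3 share. Of 32851 promoter windows, 3 held this run, and those were the 3 windows of these genes. The run begins 14 bases before the start in Hsd3b2, and 34 and 33 bases after it at the starts of Hsd3b3. The windows of the Hsd3b3 starts lie 718 bases apart and differed at 2 of 299 aligned bases. Motifs were searched in the full RefSeq windows, which reach further upstream than the stretches printed. Capitals in Cyp11a1 mark the only match in any window of the 6 genes to TCAAGGNNA, read on either strand, the type of site bound by steroidogenic factors such as LRH-1, which 4.46% of promoters hold. Another 3 motifs were searched on both strands. AAGGNCA, a nuclear receptor half-site that can overlap TCAAGGNNA and that 20.3% of promoters hold, matched once, in Hsd3b2 at 136 bases before the start. CTGTCAA, the TGIF site (3.55% of promoters), and CTTTGAT, a TCF/LEF site (3.73%), matched in no window of the 6 genes. A match is a description of letters and not of binding.

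All values are normalized counts, deposited by the authors in the form of gene counts divided by a factor per library, and a log2 fold change is a difference of log2(normalized count + 1) from limma. Of the 10 genes, 9 reached 10 normalized counts in at least 5 libraries and were tested among 18445 genes. Cyp11b1 did not. In bulk tissue, fewer cells of a type and less RNA per cell cannot be told apart.

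Library totals lay between 34417808 and 44732717 normalized counts. The targeted Tgif1 ranged from 251 to 654 in Apc/Tgif-labelled tumours, against 2785 to 4965 in Apc tumours and 829 to 1181 in wild-type colon. Tgif2 went against its label, at 2141 to 3107 in Apc/Tgif-labelled tumours and 476 to 764 in Apc tumours; the deleted part of the gene is not given, so these totals do not check the deletion. Between Apc tumours and wild-type colon 4415 genes were higher and 4639 lower. With library totals made equal the split was 6169 higher and 3395 lower, and the median of all genes moved from -0.01 to 0.19 on the log2 scale; between Apc/Tgif-labelled tumours and wild-type colon it moved from 0.0016 to 0.15. Every called direction of the 9 tested genes was the same under that scaling. Markers of other cells moved with the groups: 8 of 8 smooth muscle markers and 8 of 8 markers of mature colonocytes fell in both tumour groups against wild-type colon. Smooth muscle markers summed to 200911 to 299987 normalized counts per wild-type library, 13160 to 22505 per Apc tumour and 10043 to 18731 per Apc/Tgif-labelled tumour. Colonocyte markers summed to 320871 to 392340, 50569 to 155985 and 44106 to 94459, and none of either list was at 0. Neuron and glia markers fell (7 of 7 in both tumour groups), as did 5 of 7 lymphocyte markers. Stem and crypt markers (7 of 7) and Paneth markers (5 of 6) rose in both. In Apc/Tgif-labelled tumours against wild-type colon 5 of 7 macrophage markers rose. There the Paneth marker Ang4 and the macrophage marker Cd163 fell, at -2.72 and -2.44 (limma adjusted p = 0.000709 and 0.013). Of all genes, 25.2% fell and 23.9% rose in Apc tumours, and 25.5% and 24.8% in Apc/Tgif-labelled tumours. Between the tumour groups 4 of 8 colonocyte markers fell and 0 of 8 smooth muscle markers were called, where 8.76% of all genes fell. The part of these cell types in the results below was not tested.

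Against wild-type colon, Apc tumours had less of most genes of the set. Of the 9 tested genes, 7 fell and 2 rose, where 49.1% of all genes tested were called, 25.2% lower and 23.9% higher. In Apc/Tgif-labelled tumours, 7 fell, 1 rose and 1 did not pass, where 50.3% of all genes were called, 25.5% lower and 24.8% higher. Between the tumour groups, 4 were lower in Apc/Tgif-labelled tumours, 1 was higher and 4 did not pass, where 16.6% of all genes were called, 8.76% lower and 7.88% higher. The comparisons with wild-type colon share its 5 libraries. The median log2 fold change of the 9 genes was -2.04, -2.50 and -0.64 in these comparisons, beside medians near 0 for all genes tested, at -0.01, 0.0016 and -0.01.

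**Figure D1:**
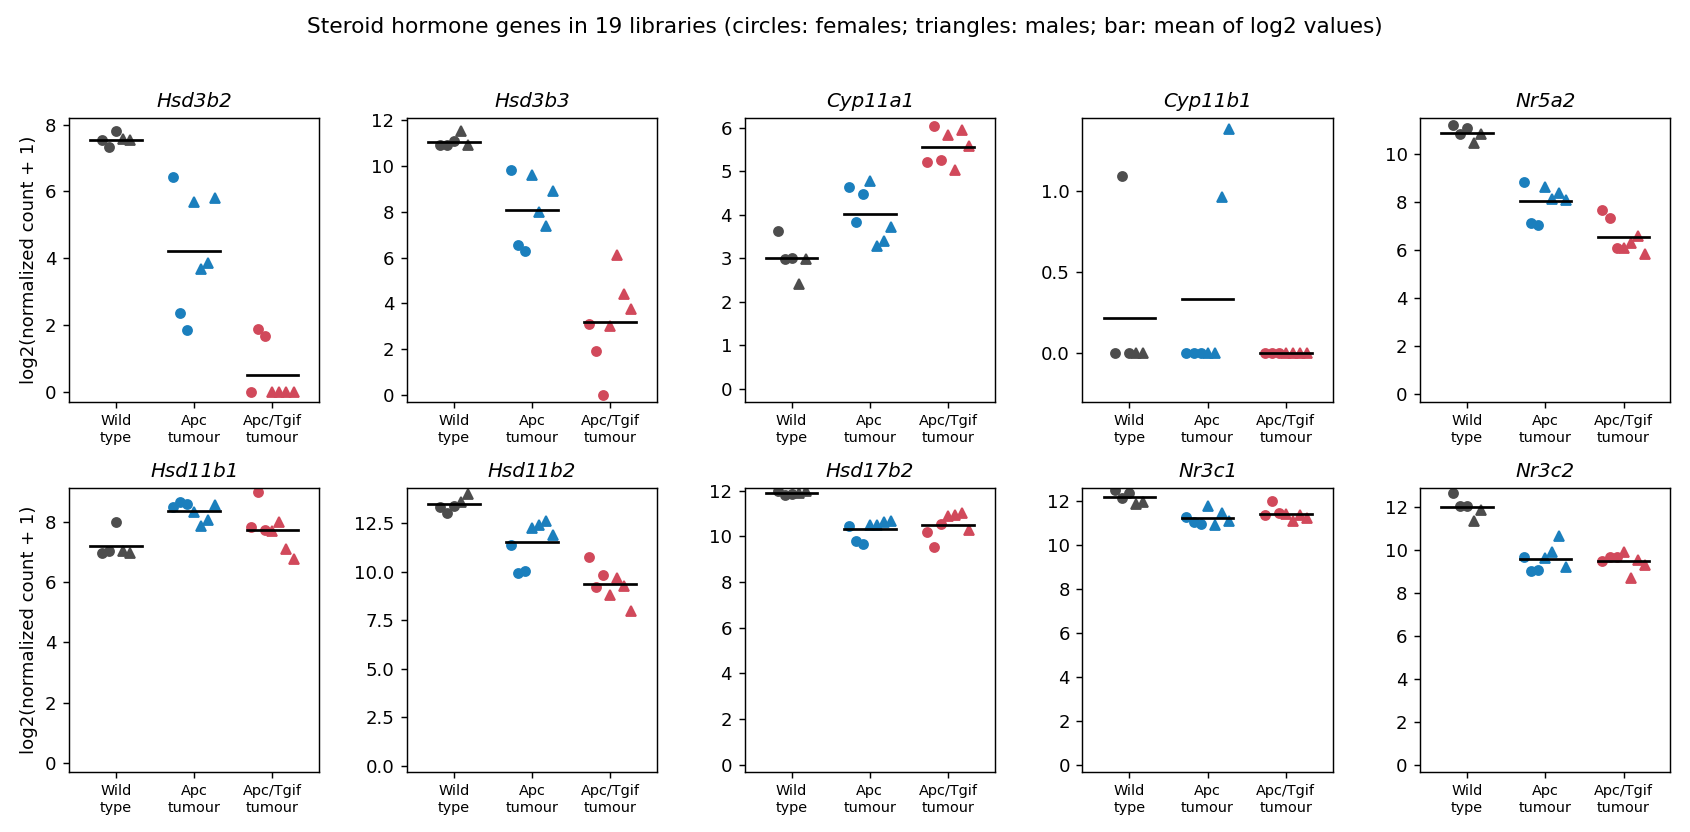
Levels of the 10 genes in each of 19 libraries, as log2(normalized count + 1), by group (Apc/Tgif stands for Apc/Tgif-labelled tumours); circles are females, triangles males, and bars the mean of the log2 values. Nr5a2, Hsd3b2, Hsd3b3 and Hsd11b2 step down from wild-type colon to Apc tumours and again to Apc/Tgif-labelled tumours, and Cyp11a1 steps up.

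Nr5a2, the regulator, lies on chromosome 1 (GRCm38, 136842571 to 136960448, minus strand). Its level in wild-type colon was 2368, 1823, 2164, 1384 and 1814 normalized counts, a mean of 1910 ± 377 (SD, n = 5). In Apc tumours it ranged from 129 to 457 with a median of 275, and in Apc/Tgif-labelled tumours from 56.4 to 203 with a median of 77.6. Every tumour library lay below every wild-type library, while the tumour groups overlapped. Nr5a2 fell by 2.83 on the log2 scale in Apc tumours (SE 0.346, limma adjusted p = 1.89e-06). It fell by 4.29 in Apc/Tgif-labelled tumours (SE 0.346, adjusted p = 7.09e-09). Between the tumour groups the log2 fold change was -1.47 (SE 0.313, adjusted p = 0.00321). That last call was lost among females alone, at -0.64 (adjusted p = 0.384), and with the distal colon gene Hoxb13 as a covariate, at -1.15 (adjusted p = 0.0501).

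Of the 9 genes fixed as regulators of steroid genes, 5 were tested. Prox1, a homeodomain repressor that binds LRH-1 and is a Wnt target in colon tumours, rose in both tumour groups, from a wild-type mean of 43.5 normalized counts to means of 4770 and 5800. Its log2 fold changes against wild-type colon were 6.71 (SE 0.340, adjusted p = 2.19e-11) and 7.03 (SE 0.340, adjusted p = 8.75e-12). Nr1h4, the bile acid receptor FXR, fell with Nr5a2 in all 3 comparisons, with means of 1621, 829 and 259 and a log2 fold change between the tumours of -1.64 (SE 0.347, adjusted p = 0.0030). Gata6 was not called in any of the 3, and Nr5a1, the steroidogenic factor of the adrenal gland and gonads, did not reach the level for testing.

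Hsd3b2 and Hsd3b3, which are among the Hsd3b family enzymes that make progesterone from pregnenolone, fell in all 3 comparisons. They are neighbours on chromosome 3 and both are read from the minus strand, Hsd3b2 at 98709255 to 98724543 and Hsd3b3 at 98741523 to 98763127 (GRCm38). Of the windows of 75 bases, the read length, in the Hsd3b3 transcript, 25.1% also occur in another gene, among them Hsd3b2, Hsd3b6 and the overlapping Zfp697. For Hsd3b2 the share was 16.1%. The sources used here do not say whether reads were counted by strand, so the single values of this pair are uncertain.

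Hsd3b3 stood at 1959, 1931, 2182, 2929 and 1916 normalized counts in wild-type colon, a mean of 2183 ± 431 (SD, n = 5). Apc tumours ranged from 76.8 to 898 with a median of 256, and Apc/Tgif-labelled tumours from 0 to 68.5 with a median of 7.47. No library of one group reached the range of another. Groups did not overlap in 29.4% of all genes for Apc tumours against wild-type colon, in 30.6% for Apc/Tgif-labelled tumours against wild-type colon and in 4.07% between the tumours. The log2 fold change was -3.24 in Apc tumours (SE 0.703, adjusted p = 0.000861). It was -8.13 in Apc/Tgif-labelled tumours (SE 0.703, adjusted p = 1.81e-08) and -4.89 between the tumour groups (SE 0.635, adjusted p = 5.17e-05). With a pseudocount of 8 the log2 fold changes of Hsd3b3 became -3.10, -6.99 and -3.88, each still called.

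Hsd3b2 followed the same order at 185, 159, 222, 187 and 185 normalized counts in wild-type colon. Apc tumours held 84.9, 4.14, 2.57, 49.8, 11.7, 13.3 and 54.7. Of the 7 Apc/Tgif-labelled tumours, 5 were listed at 0 and the others at 2.70 and 2.15. Wild-type colon lay above all tumours, and the tumour groups overlapped in a narrow band, at 2.57 in the lowest Apc tumour and 2.70 in the highest Apc/Tgif-labelled tumour. The log2 fold changes were -3.33 (SE 0.684, adjusted p = 0.000518) and -7.05 (SE 0.684, adjusted p = 7.4e-08) against wild-type colon. Between the tumour groups the log2 fold change was -3.72 (SE 0.619, adjusted p = 0.000422). These sizes depend on the pseudocount where values are near 0: with a pseudocount of 8 they became -2.76, -4.52 and -1.76, each still called, and in the first and the last of these Hsd3b2 no longer fell further than Nr5a2 and Hsd11b2, respectively.

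The Apc tumours spread widely for this pair, and they also spread widely for a gene of distal colon position. Hoxb13, a homeobox gene expressed in the distal colon, ranged from 13466 to 16616 normalized counts in wild-type colon and from 6540 to 8720 in Apc/Tgif-labelled tumours. The Apc tumours held 1542, 5271, 5470, 1088, 9351, 8753 and 1279. The 3 Apc tumours with the lowest Hoxb13 were the 3 with the highest Hsd3b2 and Hsd3b3. Without them, a choice made after seeing the data, Hsd3b3 still differed between the tumour groups at -3.98 (adjusted p = 0.000976) and Hsd3b2 at -2.41, while Nr5a2 no longer passed at -1.09 (adjusted p = 0.062).

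**Figure D2:**
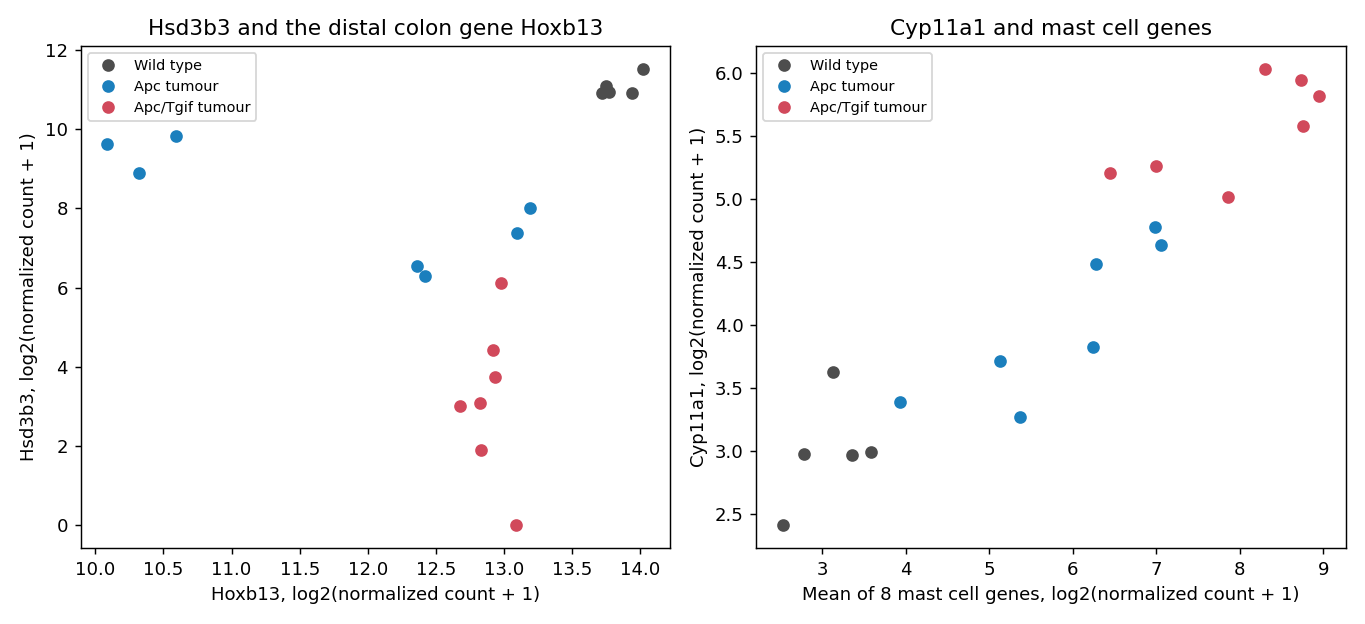
Left, Hsd3b3 against Hoxb13; right, Cyp11a1 against the mean of 8 mast cell genes; all axes are log2(normalized count + 1), and each point is 1 of 19 libraries, coloured by group (Apc/Tgif stands for Apc/Tgif-labelled tumours). The 3 Apc tumours at the low end of the Hoxb13 axis, on the left, have the highest Hsd3b3 of their group, and Cyp11a1 climbs with the mast cell genes.

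Cyp11a1, which starts the pathway, moved the other way. It lies on chromosome 9 (58006411 to 58027023, plus strand) and was scarce, at 11.4, 6.85, 6.96, 4.31 and 6.84 normalized counts in wild-type colon. Apc tumours ranged from 8.66 to 26.4 with a median of 13.2, and Apc/Tgif-labelled tumours from 31.3 to 64.5 with a median of 46.8. All 7 Apc/Tgif-labelled tumours lay above every other library, and Apc tumours overlapped wild-type colon. It rose by 1.07 on the log2 scale in Apc tumours (SE 0.305, adjusted p = 0.00697). The first call was lost among males alone, at 1.10 (adjusted p = 0.103), and with Hoxb13 as a covariate, at 0.38 (adjusted p = 0.501). Hoxb13 was higher in every wild-type library than in any tumour, so as a covariate it can take up much of that difference. Cyp11a1 rose by 2.61 in Apc/Tgif-labelled tumours (SE 0.305, adjusted p = 8.03e-07) and was 1.54 higher there than in Apc tumours (SE 0.276, adjusted p = 0.000824). With a pseudocount of 8 the log2 fold changes of Cyp11a1 became 0.67, 1.87 and 1.20, each still called.

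Cyp11a1 is also expressed by mast cells, and a list of 8 mast cell genes, added after the data were seen, moved with it. Their sum was 86.9 to 136 normalized counts per wild-type library, 241 to 2093 per Apc tumour and 1054 to 7834 per Apc/Tgif-labelled tumour, and none was at 0 throughout a group. Of the 8, 7 rose in Apc tumours, 8 in Apc/Tgif-labelled tumours, and 5 were higher in the latter than in the former. Of all genes tested, 23.9%, 24.8% and 7.88% were higher in these comparisons. Cpa3, the mast cell carboxypeptidase, rose by 2.59 (SE 0.558, adjusted p = 0.000778) and 4.50 (SE 0.558, adjusted p = 1.63e-06) against wild-type colon. Their mean log2 level ran from 2.53 to 3.58 in wild-type colon and from 6.44 to 8.94 in Apc/Tgif-labelled tumours, so as a covariate it can take up much of a difference between those groups. With it, Cyp11a1 was called in none of the 3 comparisons: its log2 fold change was -0.04 in Apc tumours (adjusted p = 0.954), 0.65 in Apc/Tgif-labelled tumours (adjusted p = 0.46) and 0.68 between them (adjusted p = 0.154). The part of mast cells in the result was not tested.

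The genes of the last steps were at or near 0. Cyp11b1, which completes corticosterone, was listed at 1.14 in 1 of 5 wild-type libraries, at 0.95 and 1.61 in 2 of 7 Apc tumours, and at 0 in every other library. Cyp11b2, the aldosterone synthase, was listed at 0 in all 19 libraries. The set is therefore described as genes of the pathway, and these libraries do not show its last enzymes above a level near 0.

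Of the 16 genes fixed for the synthesis steps, 10 were tested, and the count was 3 higher, 4 lower and 3 not passed against wild-type colon in either tumour group. Between the tumours it was 3 higher, 2 lower and 5 not passed. The list includes Hsd3b2, Hsd3b3 and Cyp11a1 of the set, and the 2 lower genes were Hsd3b2 and Hsd3b3. Among all genes tested, 49.1% were called in Apc tumours, 50.3% in Apc/Tgif-labelled tumours and 16.6% between the tumours. Cyp21a1, the hydroxylase that makes deoxycorticosterone from progesterone, had the largest rise of the list, from 1.74 to 4.31 normalized counts per library in wild-type colon to 85.5 to 513 in Apc tumours and 37.4 to 310 in Apc/Tgif-labelled tumours. Its log2 fold changes were 5.26 (SE 0.372, adjusted p = 2.01e-09) and 4.37 (SE 0.372, adjusted p = 1.35e-08), and the difference between the tumour groups did not pass at -0.88 (SE 0.336, adjusted p = 0.0805). Of its windows, 14.7% also occur in the pseudogene Cyp21a2-ps or in Tnxa, so its value is uncertain. Fdx1 and Fdxr, which pass electrons to Cyp11a1, fell in both tumour groups, with log2 fold changes of -0.51 and -0.84 for Fdx1 and -0.59 and -0.69 for Fdxr (adjusted p between 0.000423 and 0.0202); this pair was chosen after its values were seen. Stard3, a cholesterol carrier, was higher in Apc/Tgif-labelled tumours than in Apc tumours by 0.51 (SE 0.146, adjusted p = 0.0204).

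**Figure D3:**
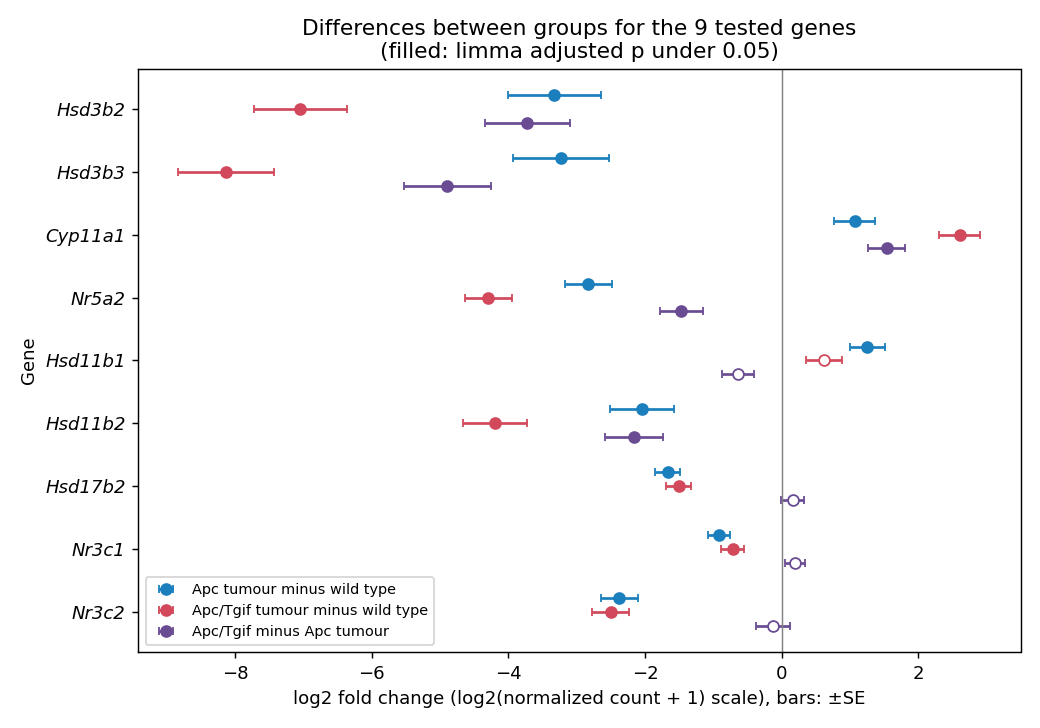
Log2 fold changes of the 9 tested genes on the log2(normalized count + 1) scale with bars of ±SE for the 3 comparisons (Apc/Tgif stands for Apc/Tgif-labelled tumours); filled points have a limma adjusted p under 0.05. Hsd3b2, Hsd3b3, Nr5a2 and Hsd11b2 lie left of 0 in all 3 comparisons, Cyp11a1 lies right of 0, and the difference between tumour groups is near 0 for Hsd17b2, Nr3c1 and Nr3c2.

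Hsd11b2, the enzyme that inactivates corticosterone and so keeps the mineralocorticoid receptor open to aldosterone, lies on chromosome 8 (105518755 to 105523988, plus strand). It stood at 10436, 8464, 10717, 12448 and 16400 normalized counts in wild-type colon. Apc tumours ranged from 978 to 6285 with a median of 3879, and Apc/Tgif-labelled tumours from 249 to 1734 with a median of 610. All tumours lay below wild-type colon, and the tumour groups overlapped. The log2 fold change was -2.04 in Apc tumours (SE 0.468, adjusted p = 0.00138), -4.19 in Apc/Tgif-labelled tumours (SE 0.468, adjusted p = 4.82e-07) and -2.16 between them (SE 0.424, adjusted p = 0.00172). The last call was lost among females alone, at -0.52 (adjusted p = 0.405).

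The difference in Hsd11b2 between the tumour groups differed between the sexes. In males, Apc tumours lay between 3879 and 6285 and Apc/Tgif-labelled tumours between 249 and 808, with no overlap. In females, Apc tumours held 2695, 978 and 1058 and Apc/Tgif-labelled tumours 1734, 590 and 925, so the groups overlapped. The effect in males minus that in females was -2.86 on the log2 scale (SE 0.565, adjusted p = 0.00258). This was the only one of the 9 genes called for a sex difference in any of the 3 comparisons, where 0.0108%, 3.40% and 23.6% of all genes were called for Apc tumours against wild-type colon, Apc/Tgif-labelled tumours against wild-type colon and between the tumours. Of the 3 female Apc tumours, 2 also had the lowest colonocyte markers of their group, with mean log2 levels of 10.75 and 10.46 beside 12.32 to 12.5 in the other 5, and the part of this in the result was not tested.

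Hsd11b1, which works in reverse and regenerates corticosterone, rose in Apc tumours. It lies on chromosome 1 (193221634 to 193264075, minus strand). Wild-type colon held 126, 132, 255, 131 and 126 normalized counts, Apc tumours 236 to 411 with a median of 363, and Apc/Tgif-labelled tumours 108 to 517 with a median of 214. Apc tumours lay above 4 of the 5 wild-type libraries, and Apc/Tgif-labelled tumours spanned both other groups. The log2 fold change in Apc tumours was 1.26 (SE 0.259, adjusted p = 0.000532). In Apc/Tgif-labelled tumours it was 0.62 and did not pass (SE 0.259, adjusted p = 0.0537), nor did the difference between the tumours at -0.64 (SE 0.234, adjusted p = 0.0711). With library totals made equal both passed, at 0.77 (adjusted p = 0.0126) and -0.69 (adjusted p = 0.0409). Leaving out 1 library also moved them over the threshold: the first was 0.76 without wild-type replicate 3 (adjusted p = 0.0257) and 0.68, 0.68 and 0.74 without Apc/Tgif-labelled tumour 3, 6 or 7, and the second was -0.81 without Apc/Tgif-labelled tumour 2 (adjusted p = 0.00981) and -0.72 without tumour 5. With Hoxb13 as a covariate the rise in Apc tumours was 1.00 and no longer passed (adjusted p = 0.0522), though Hoxb13 itself parts wild-type colon from tumours. Wild-type replicate 3 also held the most adipocyte RNA, with 5 markers summing to 4313 normalized counts beside 8.54 to 1661 in the other wild-type libraries and at most 19.7 in a tumour, where 1 of the 5 was at 0 throughout each group. Hsd11b1 in Apc tumours was 1.32 with their mean log2 level as a covariate (adjusted p = 0.0473), a level that itself nearly parts wild-type colon from tumours, and the part of adipocytes in the result was not tested. H6pd, which supplies Hsd11b1 with its cofactor, rose in both tumour groups by 1.07 (SE 0.183, adjusted p = 8.32e-05) and 1.13 (SE 0.183, adjusted p = 3.75e-05).

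Hsd17b2, which converts estradiol and testosterone to less active forms, lies on chromosome 8 (117701904 to 117759027, plus strand). Its wild-type values were the tightest of the set, at 4000, 3621, 3731, 3782 and 4021 normalized counts, a mean of 3831 ± 174 (SD, n = 5). Apc tumours ranged from 808 to 1601 with a median of 1441, and Apc/Tgif-labelled tumours from 741 to 2065 with a median of 1502. All 14 tumours lay below wild-type colon and the tumour groups lay over each other. Its log2 fold changes were -1.67 (SE 0.183, adjusted p = 5.07e-07) and -1.51 (SE 0.183, adjusted p = 1.24e-06), and between the tumours the difference of 0.16 did not pass (SE 0.166, adjusted p = 0.572).

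Of 22 genes fixed for the interconversion of steroids, 18 were tested, among them Hsd11b1, Hsd11b2 and Hsd17b2 of the set. In Apc tumours 9 rose and 5 fell, in Apc/Tgif-labelled tumours 4 rose and 7 fell, and between the tumours 2 were lower and 16 did not pass. Of all genes tested, 49.1%, 50.3% and 16.6% were called in these comparisons. Akr1c14, a hydroxysteroid dehydrogenase, fell from a mean of 7476 normalized counts in wild-type colon to 1207 in Apc tumours and 610 in Apc/Tgif-labelled tumours, with log2 fold changes of -2.86 (SE 0.416, adjusted p = 1.52e-05) and -3.83 (SE 0.416, adjusted p = 3.54e-07). Akr1c18, which inactivates progesterone, was lower in Apc/Tgif-labelled tumours than in Apc tumours (log2 fold change -2.76, SE 0.381, adjusted p = 8.73e-05), from a range of 7.20 to 35.3 normalized counts to one of 0 to 1.99.

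Both corticosteroid receptor genes fell in both tumour groups. Nr3c2, the mineralocorticoid receptor gene on chromosome 8 (76899442 to 77245012, plus strand), stood at 6488, 4193, 4198, 2574 and 3681 normalized counts in wild-type colon. Apc tumours ranged from 527 to 1600 with a median of 793, and Apc/Tgif-labelled tumours from 420 to 948 with a median of 736. All tumours lay below wild-type colon. The log2 fold changes were -2.38 (SE 0.270, adjusted p = 7.61e-07) and -2.50 (SE 0.270, adjusted p = 2.86e-07), and the difference between the tumours, -0.12, did not pass (SE 0.244, adjusted p = 0.79).

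Nr3c1, the glucocorticoid receptor gene on chromosome 18 (39410545 to 39519421, minus strand), was the other. Wild-type colon held 5815, 4488, 5383, 3711 and 3975 normalized counts, Apc tumours 1949 to 3472 with a median of 2216, and Apc/Tgif-labelled tumours 2212 to 4131 with a median of 2677. Apc tumours lay below all wild-type libraries, and 1 Apc/Tgif-labelled tumour, at 4131, reached into the wild-type range. The log2 fold changes were -0.92 (SE 0.162, adjusted p = 0.000115) and -0.72 (SE 0.162, adjusted p = 0.00103), with 0.20 between the tumours, which did not pass (SE 0.146, adjusted p = 0.406).

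Among 12 tested receptors and receptor chaperones, 5 fell and 2 rose in Apc tumours, 6 fell and 2 rose in Apc/Tgif-labelled tumours, and 1 differed between the tumours, beside 49.1%, 50.3% and 16.6% of all genes called. Nr3c1 and Nr3c2 are in this list and among the genes that fell. The gene that differed between the tumours was Esr1, estrogen receptor alpha, which rose from a mean of 360 normalized counts in wild-type colon to 1008 and 2476, with log2 fold changes of 1.41 (SE 0.313, adjusted p = 0.00104), 2.67 (SE 0.313, adjusted p = 8.41e-07) and 1.26 between the tumours (SE 0.283, adjusted p = 0.00462). Esr2, estrogen receptor beta, fell, with log2 fold changes of -2.26 and -2.46 (SE 0.353 each, adjusted p = 3.13e-05 and 9.43e-06).

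Of 12 genes that aldosterone is known to regulate, 9 fell and 1 rose in Apc tumours, where 25.2% of all genes fell and 23.9% rose. In Apc/Tgif-labelled tumours 8 fell and 1 rose, where 25.5% of all genes fell and 24.8% rose, with median log2 fold changes of -1.32 and -1.50. Scnn1a, the alpha subunit of the epithelial sodium channel, fell from a mean of 7868 normalized counts to 1913 and 2333. Its log2 fold changes were -2.25 (SE 0.306, adjusted p = 6.90e-06) and -1.86 (SE 0.306, adjusted p = 4.65e-05). The beta subunit, Scnn1b, was called in neither tumour group, at 0.61 (adjusted p = 0.1793) and 0.32 (adjusted p = 0.4996). The gamma subunit, Scnn1g, was not called in Apc tumours, at -0.97 (adjusted p = 0.1627). In Apc/Tgif-labelled tumours Scnn1g fell, at -1.415 (adjusted p = 0.04413). Scnn1b and Scnn1g were chosen after their values were seen. Usp2, a deubiquitinase that acts on that channel, fell from 2387 to 174 and 169 (SE 0.391 each, adjusted p = 4.01e-07 and 2.06e-07). Slc12a2, the cotransporter of sodium, potassium and chloride, was the gene that rose, from 13429 to 25740 and 45002 (SE 0.175 each, adjusted p = 0.000122 and 6.17e-08), and it differed between the tumours by 0.84 (SE 0.158, adjusted p = 0.00122). Kcnma1, the large potassium channel, was lower in Apc/Tgif-labelled tumours than in Apc tumours at -0.97 (SE 0.194, adjusted p = 0.00196).

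Of 16 genes that glucocorticoids are known to induce, 4 rose and 5 fell in Apc tumours, 2 rose and 5 fell in Apc/Tgif-labelled tumours, and 1 differed between the tumours. These shares lie near or below the 49.1%, 50.3% and 16.6% of all genes called. Anxa1, an anti-inflammatory annexin, rose by 1.51 (SE 0.135, adjusted p = 3.81e-08) and 0.83 (SE 0.135, adjusted p = 4.12e-05), and was lower in Apc/Tgif-labelled tumours than in Apc tumours at -0.69 (SE 0.122, adjusted p = 0.000757). Ddit4, a stress-induced brake on growth signalling, rose by 1.84 and 2.11 (SE 0.236 each, adjusted p = 3.38e-06 and 4.52e-07). Klf9 fell, with log2 fold changes of -1.30 and -0.93 (SE 0.290 each, adjusted p = 0.00107 and 0.012).

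Genes most like each member were found by the root mean squared difference of log2(normalized count + 1) over the 19 libraries, each gene centred on its mean. Genes with predicted, clone or pseudogene names and immunoglobulin segments were left out, so the nearest gene is the nearest among the other tested genes. The nearest to Nr5a2 was Ugt1a7c, a glucuronosyltransferase, at 0.372, where Nr5a2 itself had an SD of 1.84. The nearest to Hsd11b2 was Thbs4, a thrombospondin, at 0.364 beside an SD of 1.87. For Hsd3b3 it was Aadac, a deacetylase, at 1.19 beside an SD of 3.56, and for Hsd17b2 it was Ppp1r14d at 0.253 beside an SD of 0.786. Hsd11b1 lay nearest to Emb at 0.317, Nr3c1 to Pard3b at 0.161 and Nr3c2 to Plscr4 at 0.316.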

How the data were processed

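Poly-A RNA was read from 1 end over 75 bases, per the labels' protocols. The deposited table holds normalized counts, a signal per gene and library; its values have the form of counts divided by a library factor, which no header records. Salmon, DESeq2 and the GRCm38 and mm10 builds are named per the submitters' processing notes, with versions, annotation and strand setting not given in the sources used here. Within a library, the median over genes of the ratio to the gene's geometric mean ran from 1.00441 to 1.00454. Values were not whole, so no count model was run, and depth limits values near 10. The test on log2(normalized count + 1) was limma's (version 3.58.1, in R 4.3.3), 19 libraries in 1 fit of group and sex, with trended, robust empirical Bayes moderation. Genes needed 10 normalized counts in 5 libraries. P-values are two-sided and Benjamini-Hochberg adjusted over all 18445 genes tested, the threshold being 0.05. Sex differences used 1 mean per group and sex. The steps were tested on simulated data. The design text describes separate mice, so replicates are biological; replicate numbers follow the order of deposit and only name libraries.

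The members and gene lists were chosen with earlier results of these data known. The lists of synthesis, interconversion, regulator and receptor genes include members of the set, so their counts overlap those of the 9 tested genes. From each pathway list, up to 4 genes with the smallest p in a comparison could be named, and for each member averaging 100 normalized counts or more, its 2 nearest patterns. The mast cell list, its covariate and those of adipocyte genes and Hoxb13, and the setting without the 3 Apc tumours lowest in Hoxb13 were added after the data were seen. Gene positions and shared windows come from GENCODE's GRCm38 annotation, and promoters from RefSeq GRCm38.p6. The alternatives changed the pseudocount, filter, scaling, sex term, prior, weights, libraries and covariates one at a time. Some genes selected by the naming rule are not reported here.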

Additional observations from a re-analysis of the deposited data

Results flagged for a closer look

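In 29 groups of values of the 10 genes, 7 had a highest library far from the rest of its group. The cut-off is set to flag about 1 in 20 groups by chance, a rate not measured in these groups. In wild-type colon, Hsd3b3 stood at 2929 normalized counts in replicate 4, Hsd11b1 at 255 in replicate 3, and Cyp11b1 at 1.14 in replicate 2, the other 4 libraries being at 0. In Apc/Tgif-labelled tumours, Hsd3b3 stood at 68.5 in replicate 5, whose top gene, the ribosomal precursor Rn45s, held 9.35% of its total. Hsd11b1 at 517 and Nr3c1 at 4131 were both in replicate 2 of that group. In Apc tumours, Nr3c2 stood at 1600 in replicate 6, and without it the difference in Nr3c2 between the tumours turned from -0.12 to 0.06.

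For Hsd11b2, the difference between the tumour groups in males minus that in females was -2.86 on the log2 scale (limma adjusted p = 0.00258). Leaving out each library in turn gave -3.33 to -2.45, called each time.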

How the results depend on the processing

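Leaving out each library in turn, the number of the 9 tested genes called stayed at 9 in Apc tumours against wild-type colon, was 8 to 9 for Apc/Tgif-labelled tumours and 5 to 6 between the tumours. The number called for a sex difference was 1 to 3: without Apc tumour 1, Hsd3b2 and Nr5a2 joined Hsd11b2, and without Apc/Tgif-labelled tumour 3, Nr5a2 did. Of 513 such fold changes 505 kept their direction and side of the threshold. Under other settings 369 of 387 did. The 513 include fits without a library of the group not compared, which enters a fold change only through the sex term. Among females alone 2 genes were called between the tumours in place of 5, and Hsd3b2 did not reach the level for testing there. Calls among all genes went the other way among females, at 4332 between the tumours in place of 3068. Uncalled differences between the tumours changed sign: Nr3c2 was 0.36 among females alone, 0.062 without Apc tumour 6 and 0.0036 without Apc/Tgif-labelled tumour 5, within -0.23 to 0.062 over all libraries left out, and Nr3c1 was -0.036 among males alone. Cyp11a1 in Apc tumours was -0.036 with the mast cell covariate. With Hoxb13 as a covariate 7, 8 and 4 genes were called, and Cyp11a1 in Apc tumours was lost at 0.38 (limma adjusted p = 0.501). Hoxb13 itself parts wild-type colon from tumours, so it can take up much of a difference between them. Among all genes, calls between the tumours fell from 3068 to 1808 with that covariate and to 1783 without the 3 Apc tumours lowest in Hoxb13, and calls in Apc tumours from 9054 to 5634 among males alone. The causes were not tested. A filter of 50 left Cyp11a1 untested. Normalized counts near 10 and below carry little precision. No paired analysis was possible because the labels carry no replicate numbers shared between groups.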

Other observations

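Hsd3b7, a family member that acts in bile acid synthesis and not on steroid hormones, rose where Hsd3b2 and Hsd3b3 fell. It lay between 786 and 985 normalized counts in wild-type colon, 1731 and 2909 in Apc tumours and 2019 and 2576 in Apc/Tgif-labelled tumours, so all tumours lay above wild-type colon. Its log2 fold changes were 1.46 (SE 0.119, limma adjusted p = 1.16e-08) and 1.44 (SE 0.119, adjusted p = 9.45e-09), and between the tumours -0.03 (SE 0.107, adjusted p = 0.907). It was looked at after the values of the family were seen.

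Srd5a1, a steroid reductase that acts on testosterone and progesterone, also rose in both tumour groups, by 1.43 (SE 0.304, adjusted p = 0.000688) and 0.87 (SE 0.304, adjusted p = 0.0233), and was chosen after its values were seen.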
